A study of Mus musculus with 69 samples.

Results

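The data set normal ovary beside normal pituitary of young female mice, in 7 of the 69 libraries of a series on the repressor gene Zeb1. The members are the 4 young WT ovary libraries and the 3 young WT pituitary libraries, taken by tissue, genotype and cohort as labelled. WT mice (genotype Zeb1_WT) have an unaltered Zeb1 gene, whereas the other mice of the series carry a Zeb1 allele that the miR-200 microRNAs no longer bind. All 7 libraries came from C57BL/6J females aged 8 to 12 weeks that had not been mated, were given no treatment and were killed when vaginal cytology first showed proestrus, the stage of the cycle at which luteinizing hormone surges. WT mice were littermates and cage mates of knock-in mice from 2 embryonic stem cell clones. Total RNA of whole tissue was depleted of ribosomal RNA and sequenced with strand kept, so a value is an average over all cells of a gland. The study's methods call the libraries of a group biological replicates, and the labels do not say which ovary and pituitary came from 1 animal. Libraries are named by tissue and replicate number, and the third pituitary library, whose number could not be matched to a label, carries the letter u.

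The anterior pituitary secretes peptide hormones from specialised cells: gonadotropes make luteinizing hormone (LH) and follicle-stimulating hormone (FSH), each from the shared alpha subunit and a beta subunit of its own, while lactotropes make prolactin and somatotropes make growth hormone. In the ovary, FSH acts on the granulosa cells around each oocyte and LH on theca, mature granulosa and luteal cells, which turn cholesterol into androgens, oestrogens and progesterone. Steroids, inhibin and related proteins of the ovary act back on the pituitary, so that most genes of this axis have one end in each tissue.

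Total counts per library were 7874366 to 12896366 in ovary and 9458146 to 10427482 in pituitary. Across tested genes, Pearson correlations of log2 levels were 0.984 to 0.988 between libraries of 1 tissue and 0.752 to 0.760 between tissues, and no library was a copy of another. Levels are given as counts per 1000000 counts of a library (CPM) with TMM scaling over the 7 libraries, and as TPM where genes are compared with each other, since TPM (transcripts per 1000000) corrects for transcript length. Fold changes between tissues rest on the TMM-scaled counts, since TPM lack that scaling. Ovary libraries differed in low background. On 2001 olfactory and vomeronasal receptor genes, which nose cells use, the summed level was 897, 1091 and 964 CPM in ovary 1, 2 and 4, against 359 CPM in ovary 3 and 281 to 375 CPM in pituitary. Of these genes 95% lay at or under 0.974 CPM in ovary and 0.400 CPM in pituitary. Levels that low are therefore not read here as expression, and the size of a fold change against them is uncertain. Fold changes with ovary 3 alone against the 3 pituitaries are given below for some genes. The spread in that fit came from the pituitary libraries alone, and ovary was assumed to vary like them. The libraries carried the markers of their labelled tissue: the 7 hormone subunit genes summed to 167192 to 192281 CPM in pituitary and 0.961 to 3.84 CPM in ovary, and 20 granulosa cell genes to 5541 to 6782 CPM in ovary and 190.4 to 195 CPM in pituitary.

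Most genes differed between the tissues. Of 20111 genes tested with edgeR's quasi-likelihood test, 13745 differed at a Benjamini-Hochberg adjusted p under 0.05 (68.3%), 7034 of them higher in ovary (35%) and 6711 higher in pituitary (33.4%). A test against a 2-fold threshold called 6351 genes (31.6%), 3689 higher in ovary (18.3%) and 2662 higher in pituitary (13.2%). The libraries of the tissues did not overlap for 13673 genes (68.0%). The split by direction depended on scaling: with library totals alone, 8960 genes were higher in ovary and 5043 in pituitary, because that scaling moved the median of all genes by 0.24 on the log2 scale. Background on receptor genes was also higher in ovary than in pituitary, except in ovary 3. Its part in the larger count toward ovary at 2-fold was not tested. Among 21897 protein-coding genes, 13408 had a mean of at least 1 CPM in both tissues, 15144 in ovary and 13910 in pituitary. Only 8 had at least 1 CPM in pituitary and under 0.1 CPM in ovary, against 183 the other way round, and the lower of these limits is itself within the ovary's level on receptor genes. In bulk RNA, fewer cells of a type and less RNA per cell cannot be told apart, which holds for every difference below. A positive log2 fold change means higher in ovary throughout. Groups of genes are described by counts and medians, to be read beside those of all genes tested. Of all genes tested, 35% were higher in ovary and 33.4% in pituitary, and their median was 0.02.

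**Figure D1:**
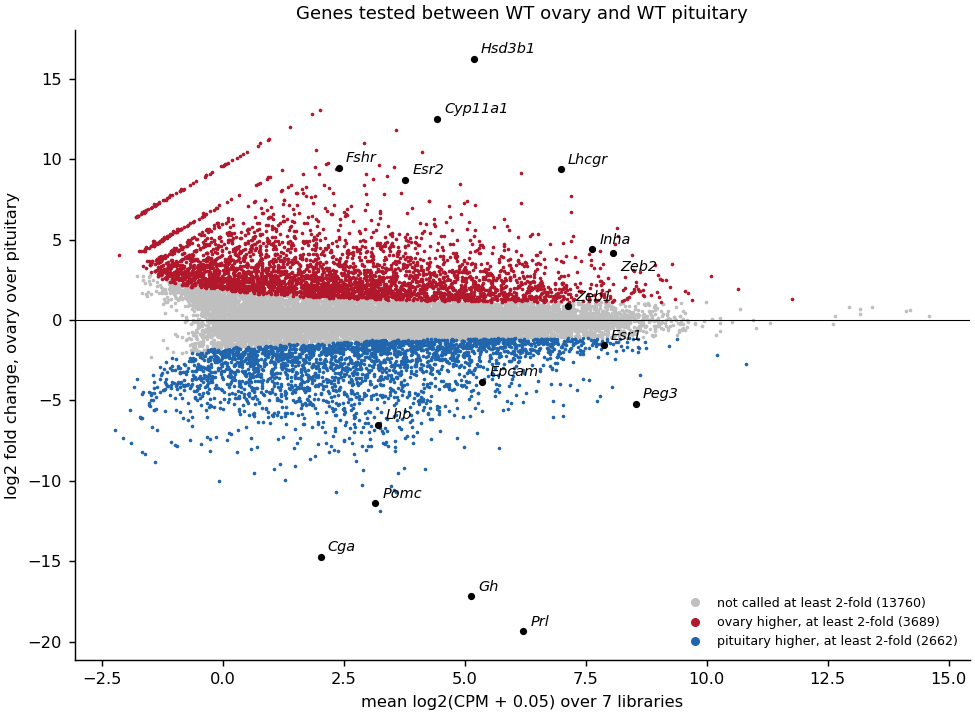
Log2 fold change of ovary over pituitary (vertical axis) against the mean log2 CPM over the 7 libraries (horizontal axis) for the 20111 genes tested, with genes called at least 2-fold in colour and axis genes named. Prl and Gh lie lowest, and Inha, Lhcgr and Hsd3b1 lie among the genes far above 0. The slanting rows of points at the upper left are genes with few or no reads in pituitary.

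Pituitary libraries were dominated by hormone RNA. Prl (ENSMUSG00000021342, chr13:27057570-27065205), the prolactin gene, had 137077, 138704 and 163059 CPM in pituitary 1, 2 and u, and 0.284, 0.349, 0.0739 and 0.185 CPM in ovary 1 to 4. Gh, the growth hormone gene, had 32966, 26405 and 27399.5 CPM in pituitary and 0.189, 0.349, 0.148 and 0.0923 CPM in ovary. Together they took 15.6, 15.2 and 17.0% of all counts in the pituitary libraries. The 3 highest genes of each pituitary, Prl, Gh and the nuclear RNA Malat1, held 18.0 ± 0.897% of counts (SD, n = 3), while those of each ovary, Malat1, mt-Co1 and mt-Nd5, held 7.498 ± 0.304% (SD, n = 4). Mitochondrial transcripts held 9.58 ± 0.163% of counts in ovary and 5.24 ± 0.109% in pituitary. For both shares the tissues did not overlap, and the exact two-sided permutation test gave p = 0.0571, the smallest that 35 splits of 4 against 3 libraries allow.

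All 7 hormone subunit genes passed the low-count filter and were higher in pituitary, with 7 called at least 2-fold. Cga, the alpha subunit shared by LH, FSH and thyrotropin, had 1062, 939 and 858 CPM in pituitary, with 1 read over the 4 ovaries, a ratio of 41589.9-fold (95% counting interval 7464 to 1642777). Lhb, the LH beta subunit, had 145, 115 and 108 CPM in pituitary and 1.14, 1.63, 0.665 and 2.12 CPM in ovary, a log2 fold change of −6.51 (SE 0.19, edgeR adjusted p = 1.19e-13), or −7.46 with ovary 3 alone. Every pituitary library was above every ovary library for each of the 7 genes. Fshb, the FSH beta subunit, had 94.7, 120.3 and 62.1 CPM in pituitary, highest in pituitary 2 and lowest in pituitary u, and 0.0947, 0.582, 0 and 0 CPM in ovary. Tshb, the thyrotropin beta subunit, had 106, 126 and 152 CPM, and Pomc, the precursor of corticotropin, 917, 782 and 642 CPM in pituitary. Per transcript length, Prl stood at 311156 ± 18686 TPM in pituitary (SD, n = 3), above Gh at 64133 ± 8508, Cga at 2253 ± 302 and Pomc at 1309.5 ± 265 TPM. Tshb at 375 ± 55.8 and Lhb at 347 ± 61.6 TPM differed by less than their spread, and Fshb was lowest at 111 ± 39.1 TPM. In ovary, Lhb was the only one of the 7 whose mean level exceeded that of 95% of olfactory and vomeronasal receptor genes, at 1.39 ± 0.628 CPM.

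**Figure D2:**
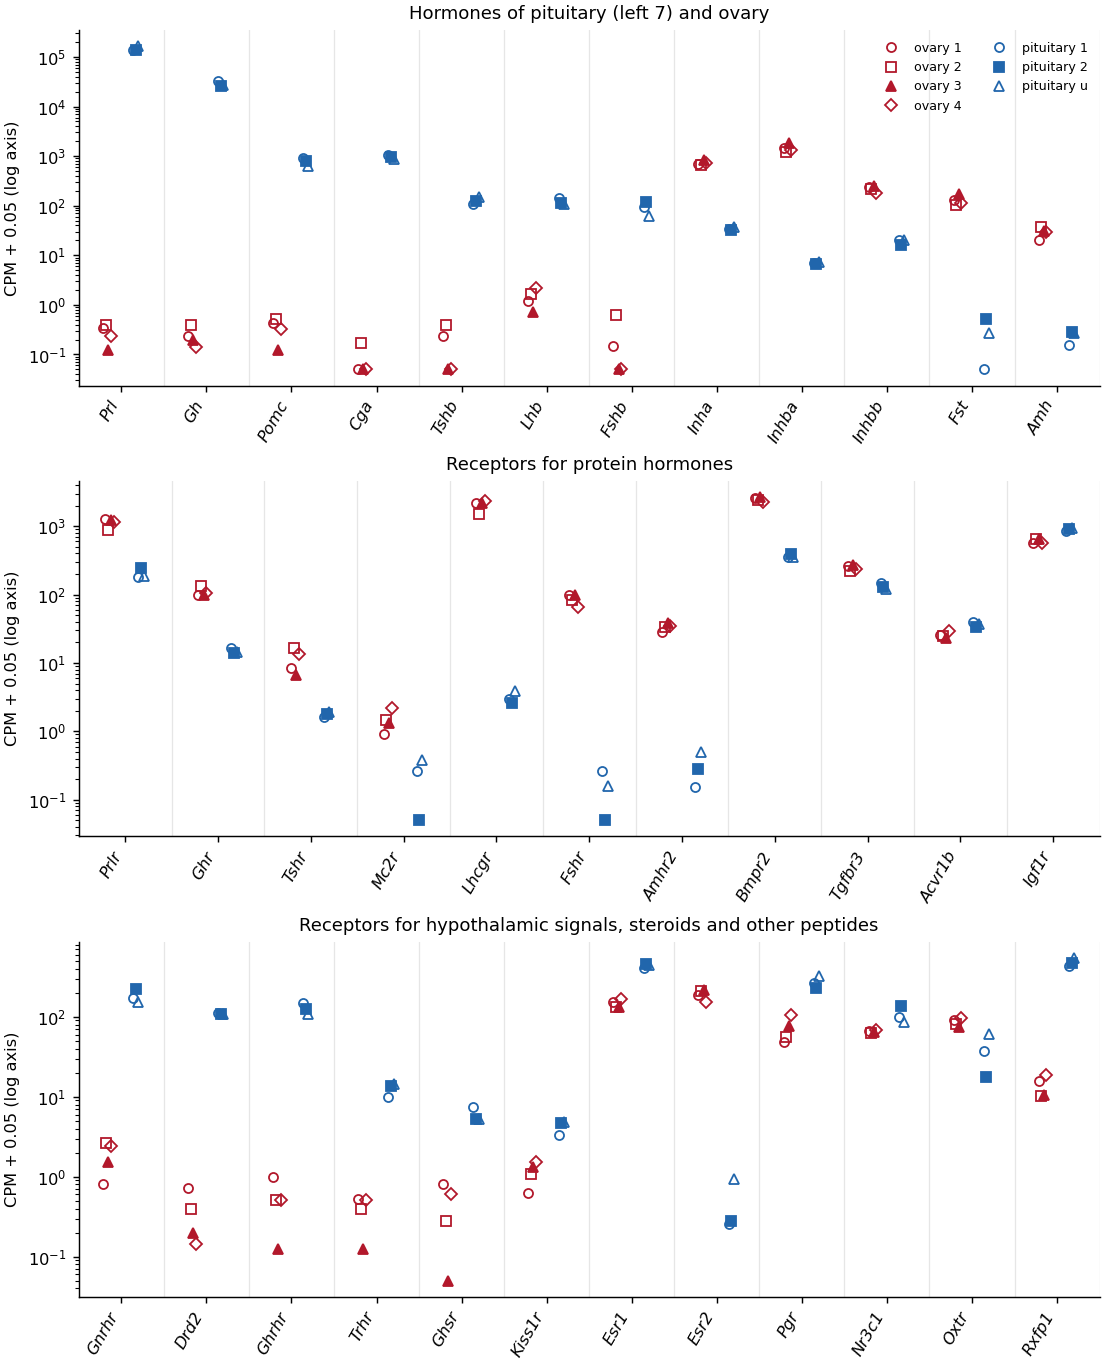
Level of hormones, other secreted proteins and receptors in each library, as CPM + 0.05 on a log axis, with 4 ovary and 3 pituitary libraries as separate points. Hormone subunits and Gnrhr stand high in pituitary, and Fshr, Lhcgr, inhibin and activin genes high in ovary.

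The receptors for these hormones were mostly found in ovary. Fshr, the FSH receptor, had 98.1, 82.9, 97.5 and 65.6 CPM in ovary and 0.210, 0 and 0.111 CPM in pituitary, with 3 reads over the pituitaries and a ratio of 789.8-fold (95% counting interval 270.1 to 3832). Lhcgr, the LH receptor, had 2217, 1526, 2191 and 2298 CPM in ovary and 2.94, 2.53 and 3.87 CPM in pituitary, a log2 fold change of 9.36 (SE 0.19, edgeR adjusted p = 2.3e-15). All ovary libraries lay far above all pituitary libraries for both genes, and ovary 2 was the lowest ovary for Lhcgr. Prlr, the prolactin receptor, had 1283, 884, 1219.8 and 1141 CPM in ovary but also 181, 244 and 187 CPM in pituitary, where the hormone is made (log2 fold change 2.47, SE 0.13, edgeR adjusted p = 8.62e-11). Ghr, the growth hormone receptor, was higher in ovary by 2.86 (SE 0.12) and Tshr, the thyrotropin receptor, by 2.67 (SE 0.33) on the log2 scale, the latter by 1.95 with ovary 3 alone. Mc2r, the corticotropin receptor, was low everywhere, with 0.852, 1.40, 1.26 and 2.12 CPM in ovary and 0.210, 0 and 0.332 CPM in pituitary. Per length, Lhcgr had 835 ± 138 TPM in ovary (SD, n = 4), Prlr 239 ± 36.3, Fshr 101 ± 18.8 and Ghr 65.1 ± 10.6 TPM.

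Genes for inhibin, activin and other secreted proteins of the ovary, some of which act back on the pituitary, were higher in ovary. Inha, the inhibin alpha subunit, had 702, 675, 819.8 and 715 CPM in ovary and 34.0, 32.8 and 37.5 CPM in pituitary (log2 fold change 4.39, SE 0.09, edgeR adjusted p = 2.89e-15). Inhba, which encodes the beta A subunit of activin and inhibin, had 1444, 1188, 1818 and 1335 CPM in ovary and 7.03, 6.78 and 7.30 CPM in pituitary. Inhbb, the beta B subunit, had 238, 218, 246 and 183 CPM in ovary and 20.2, 16.0 and 20.1 CPM in pituitary. No ovary library overlapped a pituitary library for these 3 genes, and the log2 fold changes of Inhba and Inhbb were 7.68 (SE 0.16) and 3.56 (SE 0.12). Fst, which encodes follistatin, a protein that binds activin, had 128, 101, 169.7 and 113 CPM in ovary, with the highest value in ovary 3, and 0, 0.459 and 0.221 CPM in pituitary. Amh, the anti-Müllerian hormone gene of granulosa cells, had 20.7, 37.8, 31.3 and 29.2 CPM in ovary and 0.105 to 0.230 CPM in pituitary. Its receptor Amhr2 had 28.4, 33.0, 38.6 and 34.97 CPM in ovary and 0.105 to 0.442 CPM in pituitary, so that hormone and receptor were found in the same tissue. Igf1, a growth factor, was higher in ovary by 3.78 (SE 0.15), and Insl3, a peptide hormone of theca cells, by 2.42 (SE 0.28).

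Receptors for these and related proteins were spread over both tissues. Bmpr2, a type II receptor for bone morphogenetic proteins, had 2566, 2380.2, 2642 and 2290.1 CPM in ovary and 354, 390.0 and 352 CPM in pituitary (log2 fold change 2.76, SE 0.07). Tgfbr3, or betaglycan, which helps inhibin bind, was higher in ovary by 0.91 (SE 0.09). Acvr1b, a type I receptor of activin, was higher in pituitary, with a log2 fold change of −0.50 (SE 0.11), and so was Igf1r, the receptor of Igf1, at −0.57 (SE 0.07). Hormone and receptor therefore stood higher in different tissues for Igf1 and Igf1r, as for Gh and Ghr.

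Receptors for steroid hormones differed one from another. Esr1, oestrogen receptor alpha, had 409.7, 459 and 440.4 CPM in pituitary and 155, 134, 133 and 167 CPM in ovary (log2 fold change −1.57, SE 0.08, edgeR adjusted p = 1.09e-10). Esr2, oestrogen receptor beta, had the opposite pattern, with 187, 208, 214 and 155 CPM in ovary and 0.210, 0.230 and 0.884 CPM in pituitary (log2 fold change 8.72, SE 0.23, or 9.67 without pituitary u). Per length, Esr1 stood at 108 ± 8.25 TPM in pituitary and 52.6 ± 5.39 TPM in ovary, and Esr2 at 158 ± 23.6 TPM in ovary, so that ovary held more Esr2 than Esr1 RNA by a margin larger than the spread. Pgr, the progesterone receptor, was higher in pituitary, with 266, 229 and 326 CPM against 48.1, 55.4, 76.7 and 104 CPM in ovary, where ovary 4 held the highest level and ovary 1 the lowest. Nr3c1, the glucocorticoid receptor, was higher in pituitary by a log2 fold change of −0.70 (SE 0.12). Oxtr, the oxytocin receptor, was higher in ovary (1.16, SE 0.25), and Rxfp1, the relaxin receptor, higher in pituitary, with 434, 471 and 548 CPM against 15.8, 10.1, 10.3 and 18.9 CPM. Of the 37 genes listed for the axis, all passed the filter, 19 were higher in ovary and 17 in pituitary.

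Receptors that let the pituitary read signals from the hypothalamus were higher in pituitary for 11 of 12 genes, all of which passed the filter, with a median log2 fold change of −2.45. Gnrhr, the receptor of gonadotropin-releasing hormone on gonadotropes, had 171, 220.2 and 152 CPM in pituitary and 0.758, 2.56, 1.48 and 2.40 CPM in ovary (log2 fold change −6.68, SE 0.20, edgeR adjusted p = 1.45e-13). Drd2, the dopamine receptor that restrains lactotropes, had 112, 109.9 and 107 CPM in pituitary. Ghrhr, the receptor of growth hormone-releasing hormone, had 149.9, 126 and 109 CPM in pituitary, and both lay under 1 CPM in every ovary. Trhr, the receptor of thyrotropin-releasing hormone, had 9.96, 13.6 and 14.3 CPM and Ghsr, the ghrelin receptor, 7.44, 5.28 and 5.20 CPM in pituitary, levels far below those of Gnrhr and Drd2. Kiss1r, the kisspeptin receptor, was low in both tissues, with 3.25, 4.71 and 4.75 CPM in pituitary and 0.568, 1.05, 1.26 and 1.48 CPM in ovary. Adcyap1r1, a receptor of the peptide PACAP, did not pass the test, with 11.3, 10.6, 10.9 and 15.8 CPM in ovary and 19.8, 11.7 and 16.0 CPM in pituitary, but was called higher in pituitary without ovary 4 (log2 fold change −0.51) or without pituitary 2 (−0.59).

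Of 21 transcription factors of the pituitary lineages, 18 passed the filter and 16 were higher in pituitary, with a median log2 fold change of −6.00. Pou1f1, which switches on Prl, Gh and Tshb, had 749.9, 993 and 743 CPM in pituitary and 0.474, 1.51, 0.148 and 0.277 CPM in ovary. Neurod4, a factor of developing endocrine and nerve cells, had the largest difference of the group, with 999.9, 1156 and 1359 CPM in pituitary and 0.189, 0.582, 0 and 0.554 CPM in ovary (log2 fold change −11.88, SE 0.22, edgeR adjusted p = 9.36e-16). Ovary 3 had no read of Neurod4, and against a floor of 3 reads in that library pituitary was at least 5285-fold higher. Tbx19, the factor of corticotropes, had 82.9, 84.3 and 75.4 CPM in pituitary and 0.852 to 1.48 CPM in ovary, so that pituitary was far above ovary for each of these 3. Sox3 went the other way, with 3.50, 3.49, 1.77 and 3.69 CPM in ovary and 0.105, 0.689 and 0.442 CPM in pituitary (log2 fold change 2.89, SE 0.50, or 2.13 with ovary 3 alone).

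Some transcription factors are known from both gonadotropes and gonads, and these were not shared evenly. Nr5a1, or SF-1, which drives Lhb in gonadotropes and steroid enzymes in the gonad, had 86.7, 70.3, 73.2 and 71.7 CPM in ovary and 9.86, 7.81 and 10.4 CPM in pituitary (log2 fold change 3.01, SE 0.12, edgeR adjusted p = 4.7e-12). Its relative Nr5a2, or LRH-1, had 621, 652, 670.0 and 550.1 CPM in ovary and 4.40, 3.90 and 3.65 CPM in pituitary. All 4 ovary libraries stood above all 3 pituitary libraries for both, by a log2 fold change of 7.28 (SE 0.12) for Nr5a2. Foxl2, active in granulosa cells and gonadotropes, had 88.8, 93.9, 86.4 and 78.5 CPM in ovary and 23.1, 26.5 and 21.9 CPM in pituitary. Nr0b1, or DAX-1, a repressor that binds SF-1, was higher in ovary by 1.91 (SE 0.22). Gata4 and Gata6, the GATA factors of the gonad, had 172 to 187 and 127 to 135 CPM in ovary and at most 0.115 and 0.574 CPM in pituitary. Gata2, the GATA factor of gonadotropes and thyrotropes, was higher in pituitary, with 15.6, 9.07 and 10.8 CPM against 4.92, 4.89, 5.47 and 6.73 CPM. Egr1, which carries the signal of gonadotropin-releasing hormone to Lhb, had 222, 1112 and 229.7 CPM in pituitary, with pituitary 2 far above the others, and 122, 181, 151 and 149 CPM in ovary. The log2 fold change of Egr1 was −1.79 (SE 0.40, edgeR adjusted p = 0.00103), or −0.61 without pituitary 2.

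Of 6 hormone gene promoters searched, 1 held an element for Pou1f1 and 1 held an element for Nr5a1 and Nr5a2. Matches are printed here because Pou1f1 and Prl were high together in pituitary, and Nr5a1 and the receptor gene Amhr2 were high together in ovary. The match in Lhb is printed too, though Lhb was higher in pituitary and Nr5a1 in ovary. Promoters are the 250 bases before and 50 after each start in RefSeq on GRCm38.p6. Of the 7 hormone subunit genes, 6 had one in the table used, whereas Gh had none and was not searched. The Pou1f1 element TATNCAT, searched on both strands, was found in 2903 of 32851 promoters (8.84%), and among the 6 hormone genes only in Prl, where it occurs at 2 places. The Nr5a1 and Nr5a2 element CAAGGTCA was found in 512 promoters (1.56%), with 1 match among the 6 hormone genes, in Lhb on the minus strand of the gene. Of the 19 promoters of 16 granulosa genes, 1 held each element, TATNCAT in Ihh, a hedgehog ligand, and CAAGGTCA in Amhr2. The match in Ihh is not printed. None of the 13 promoters of 10 steroid synthesis genes, the 24 of 21 oocyte genes or the 15 of 13 granule genes held either. Star and other members of these lists had no promoter in the table and were not searched. A match is only a match of letters, and its absence says only that these letters are not in this window. Windows of 26 bases are written 5′ to 3′ on the strand of the gene, with the element in capitals, its first base 47 and 148 bases before the start in Prl, 129 in Lhb and 232 in Amhr2.
Prl, chr13:27057513-27057538: tgattatataTATTCATgaagatgtc
Prl, chr13:27057412-27057437: cttcctgaatATGAATAagaaataaa
Lhb, chr7:45420808-45420833: tggcttcccTGACCTTGtctgtgtct
Amhr2, chr15:102445126-102445151: accttcttcCAAGGTCAgtaggggta

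Genes of the secretory apparatus were higher in pituitary. Of 16 genes that process prohormones or build secretory granules, 15 were higher in pituitary, with a median log2 fold change of −7.24. Chgb, the granule protein chromogranin B, had 859, 872 and 894 CPM in pituitary and 0.568, 0.931, 0.0739 and 0.646 CPM in ovary. Scg2, or secretogranin II, had 735, 693 and 642 CPM in pituitary and 0.852, 0.233, 0.222 and 0.830 CPM in ovary. Of the convertases that cut prohormones, Pcsk1 had 139.9, 149 and 129 CPM and Pcsk2 had 356, 316 and 270.5 CPM in pituitary. The ovary libraries lay under 1 CPM for both granule proteins, at the level of receptor genes. Cpe, carboxypeptidase E, which trims the cut peptides, stood apart, with 292, 269, 334 and 302 CPM in ovary and 270.1, 247 and 241 CPM in pituitary, a slightly higher level in ovary (log2 fold change 0.25, SE 0.08, edgeR adjusted p = 0.0103). Ovary 2 lay below pituitary 1, and the call was lost without pituitary 2 (edgeR adjusted p = 0.0632) or pituitary u (edgeR adjusted p = 0.083). Of 20 genes of regulated exocytosis, 19 passed the filter and 18 were higher in pituitary, among them the calcium sensor Syt4 (log2 fold change −9.49, SE 0.19, or −10.43 with ovary 3 alone). Snap25, a membrane fusion protein, had 526, 477 and 496 CPM in pituitary and 0.852, 1.28, 0.665 and 0.646 CPM in ovary. Stx1a, a partner of Snap25, was higher in ovary, with 9.94, 6.40, 10.49 and 10.98 CPM against 4.30, 2.64 and 4.42 CPM.

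Voltage-gated channels followed the same direction with exceptions. Of 17 calcium, sodium and pacemaker channel genes, 14 were higher in pituitary and 2 in ovary. Scn8a, a sodium channel, had 142, 151 and 144 CPM in pituitary and 4.36, 3.37, 3.33 and 6.73 CPM in ovary. Cacna1d, an L-type calcium channel, had 371, 384 and 337 CPM in pituitary and 107, 83.6, 96.9 and 89.7 CPM in ovary. Cacna1h, a T-type calcium channel, was higher in ovary, with 118, 125, 110.1 and 114 CPM in ovary and 50.3, 29.7 and 49.3 CPM in pituitary, and its libraries did not overlap between tissues.

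Genes that make steroids were higher in ovary. Of 16 genes listed, 13 passed the filter and 12 of these were higher in ovary, each at least 2-fold, with a median log2 fold change of 6.27. Star, which brings cholesterol into mitochondria, had 224, 129.7, 114 and 99.8 CPM in ovary, with ovary 1 highest, and 1.89, 2.87 and 0.774 CPM in pituitary (log2 fold change 6.27, SE 0.36, edgeR adjusted p = 3.1e-10). Cyp11a1, which cuts the cholesterol side chain, had 1043, 809, 962 and 913 CPM in ovary and 0.315, 0 and 0.111 CPM in pituitary (log2 fold change 12.52, SE 0.21, or 13.71 without pituitary 1). Hsd3b1, which makes progesterone from pregnenolone, had 3939.8, 3241, 4079.9 and 3891 CPM in ovary and 1 read over the 3 pituitaries, a ratio of 104616-fold (95% counting interval 18776 to 4132147). The ovary libraries stood far above the pituitary libraries for all 3 of these genes. Cyp17a1, the theca enzyme that makes androgens, had 129, 251, 101 and 118 CPM in ovary, where ovary 2 was far above the others. Cyp19a1, the granulosa enzyme aromatase that turns androgens into oestrogens, had 45.4, 50.6, 69.4 and 58.9 CPM in ovary. Hsd17b1, which makes oestradiol from oestrone, had 96.8, 98.3, 118 and 87.7 CPM in ovary, and for both ovary 3 was highest. Akr1c18, which breaks down progesterone in old corpora lutea, had 74.2, 97.3, 69.4 and 62.0 CPM. Per length, ovary held 5663 ± 519 TPM of Hsd3b1 (SD, n = 4), 1219 ± 128 of Cyp11a1, 208 ± 27.6 of Hsd17b1, 173 ± 80.9 of Cyp17a1, 97.7 ± 39.4 of Star and 63.3 ± 11.4 TPM of Cyp19a1. Por, the electron donor of all microsomal cytochrome P450 enzymes, did not pass the test, with 44.7, 40.0, 37.8 and 43.7 CPM in ovary and 48.9, 44.1 and 40.8 CPM in pituitary. Cyp11b1, an enzyme of the adrenal cortex, was too low to be tested, at 2.56, 1.05, 0.813 and 0.554 CPM in ovary.

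**Figure D3:**
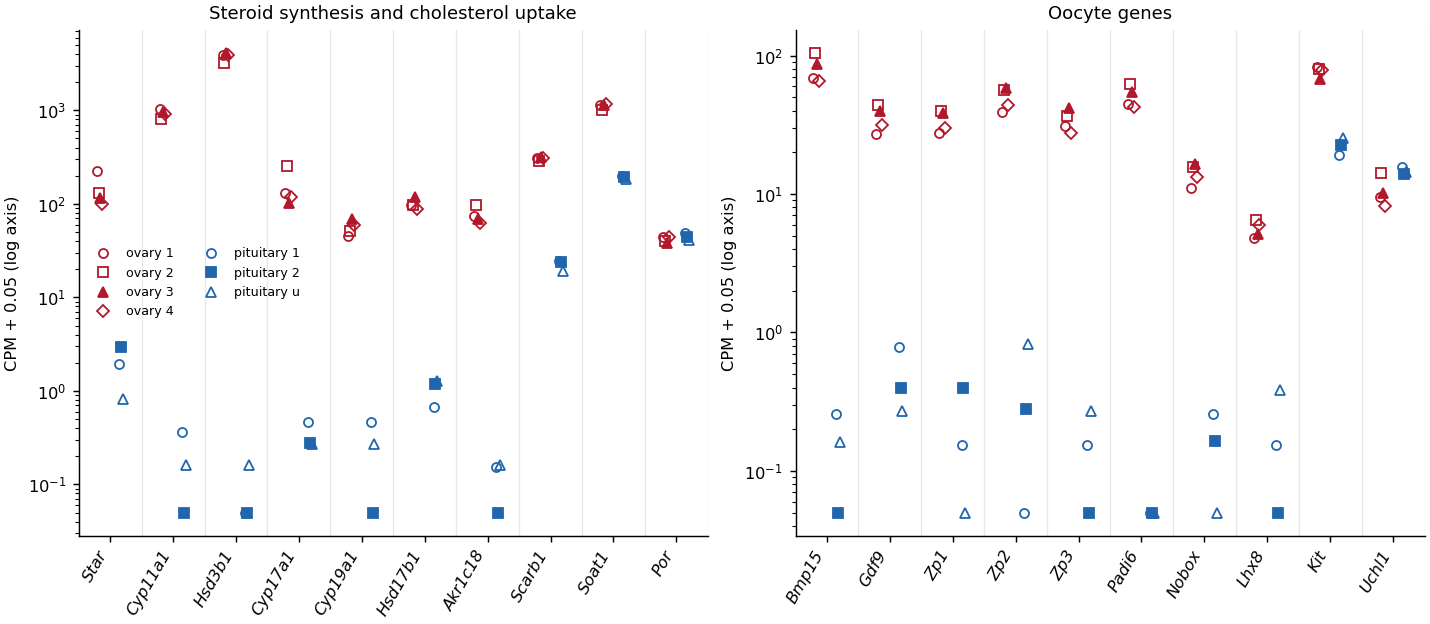
Level of genes for steroid synthesis and cholesterol supply (left) and of oocyte genes (right) in each library, as CPM + 0.05 on a log axis, with 4 ovary and 3 pituitary libraries as separate points. Hsd3b1 is highest in ovary, Por overlaps between tissues, and ovary 2 and 3 lie above ovary 1 and 4 for Bmp15, Gdf9 and the 3 Zp genes.

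Genes of cholesterol supply were higher in ovary or in pituitary depending on the step. Of 27 genes for making, taking up or storing cholesterol, all passed the filter, 15 were higher in ovary, 4 higher in pituitary and 8 did not pass, with a median log2 fold change of 0.69. With library totals alone 22 were higher in ovary and 2 in pituitary. Scarb1, the receptor that takes cholesterol from high-density lipoprotein, had 306, 289.9, 317 and 308 CPM in ovary and 24.2, 24.0 and 19.1 CPM in pituitary. Soat1, which stores cholesterol as esters, had 1147, 1014, 1149.5 and 1175 CPM in ovary and 198, 196 and 184 CPM in pituitary. Every ovary was above every pituitary for both. Hmgcs1, an early enzyme of cholesterol synthesis, was higher in ovary (1.78, SE 0.10).

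Genes of the somatic cells of follicle and corpus luteum were higher in ovary. Of 20 granulosa cell genes, all passed the filter and 19 were higher in ovary, each at least 2-fold, with a median log2 fold change of 6.20. Gja1, the gap junction protein that couples granulosa cells, had 1459, 1473, 1745 and 1538 CPM in ovary and 30.5, 28.9 and 27.4 CPM in pituitary. Wt1, a factor of gonadal somatic cells, had 99.2, 107, 102 and 120.5 CPM in ovary and no read in any pituitary, at least 974-fold higher against a floor of 3 reads over the group. Bex2 went against its list, with 29.7, 27.0 and 31.8 CPM in pituitary and 0.474, 1.40, 0.369 and 0.923 CPM in ovary. All 13 theca and stroma genes were higher in ovary, from Gli2 (0.81, SE 0.13) to Mgarp, a mitochondrial protein of steroidogenic cells (9.63, SE 0.24). Of 15 luteal genes, 13 were higher in ovary, among them Sfrp4, a secreted Wnt binder, with 329, 231, 307 and 315 CPM, and Ptgfr, the receptor for prostaglandin F2 alpha, with 184, 117, 214 and 194 CPM. Parm1 and the convertase Pcsk6 went the other way, and Pcsk6 had 695, 576 and 886 CPM in pituitary and 40.0, 47.6, 48.9 and 40.1 CPM in ovary. The series' authors named Star, Cyp11a1, Runx2 and Sfrp4 among genes lowered in knock-in ovary, from libraries of this series that include these. Their markers of granulosa and luteal cell types, Sfrp4 among them, came from an earlier publication.

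Genes known to respond to the LH surge were present at uneven levels. Of 20 listed, 16 passed the filter, 13 were higher in ovary and 2, Snap25 and Pgr, higher in pituitary. Of the factors of the ovulating follicle and young corpus luteum, Runx1 had 172, 159, 149 and 147 CPM and Runx2 had 198, 139, 156 and 144 CPM in ovary. Nrip1, a coregulator needed for ovulation, had 523, 475, 586 and 509.6 CPM in ovary. Adamts1, a matrix protease known from ovulation, had 41.6, 33.5, 51.9 and 42.3 CPM and Ctsl, the protease cathepsin L, 134, 152, 145 and 119 CPM in ovary. Ereg, an epidermal growth factor of ovulating follicles, had 3.22, 3.61, 3.47 and 3.87 CPM in ovary, and Has2, which makes the hyaluronan of the cumulus, 1.89, 2.33, 1.03 and 2.31 CPM. Tnfaip6, which binds that hyaluronan, had 2.08, 3.49, 3.10 and 1.75 CPM in ovary, and these 3 genes lay below Adamts1 in every ovary. Ptgs2, the prostaglandin enzyme of ovulation, did not pass the test, at 1.89, 2.09, 1.26 and 2.68 CPM in ovary and 1.57, 6.78 and 0.442 CPM in pituitary.

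Oocyte RNA was seen in all 4 ovaries. Of 30 oocyte genes, 27 passed the filter and 26 were higher in ovary, with a median log2 fold change of 5.59, or 5.36 with genes absent from pituitary set at their bound. Bmp15 and Gdf9, growth factors by which the oocyte acts on granulosa cells, had 68.9, 104, 87.5 and 66.0 CPM for Bmp15 and 27.2, 44.0, 39.8 and 31.4 CPM for Gdf9 in ovary. Of the zona pellucida genes, which encode the oocyte's coat, Zp2 had 39.2, 56.5, 57.9 and 44.0 CPM and Zp3 had 31.1, 36.6, 41.6 and 27.7 CPM in ovary. For each of these 4 genes ovary 2 and 3 were above ovary 1 and 4, and no pituitary library exceeded 1 CPM. Padi6, an oocyte protein needed after fertilisation, had 44.4, 62.0, 54.8 and 42.3 CPM and no read in any pituitary, at least 460.2-fold higher. Of the factors of the early oocyte, Nobox had 11.1, 15.7, 16.4 and 13.2 CPM and Lhx8 had 4.74, 6.40, 5.10 and 5.90 CPM in ovary, while Figla and Sohlh1 were too low to be tested. Kit, the receptor that oocytes show to granulosa cells, was present in both tissues, with 82.4, 79.5, 67.3 and 78.1 CPM in ovary and 19.2, 22.5 and 25.5 CPM in pituitary, and its ligand Kitl was higher in ovary (2.64, SE 0.09). Uchl1, which neurons and endocrine cells also express, was the exception, with 15.5, 14.0 and 14.4 CPM in pituitary and 9.47, 14.1, 10.1 and 8.12 CPM in ovary, and its call (log2 fold change −0.50, SE 0.17) was lost with library totals alone (−0.26) and without ovary 1 (−0.42), ovary 4 (−0.36) or pituitary 1 (−0.48).

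The series centres on Zeb1 and the miR-200 family. Zeb1 and the transcripts from which the family is cut differed between the WT tissues in opposite directions. The family is cut from 2 transcripts: Gm13648 (ENSMUSG00000086549, chr4:156052715-156059802, minus strand) spans miR-200b, miR-200a and miR-429, and Gm15884 (ENSMUSG00000087327, chr6:124715573-124718831, minus strand) spans miR-200c and miR-141. The mature 3p microRNAs, from RefSeq on GRCm38.p6, are shown 5′ to 3′ with the seed, bases 2 to 8, in capitals, since the seed decides which RNAs they bind.
mmu-miR-200b-3p: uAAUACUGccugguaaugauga
mmu-miR-200c-3p: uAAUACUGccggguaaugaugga
mmu-miR-429-3p: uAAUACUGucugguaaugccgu
mmu-miR-200a-3p: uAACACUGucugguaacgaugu
mmu-miR-141-3p: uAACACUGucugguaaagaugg
The first 3 share the seed AAUACUG and the last 2 the seed AACACUG, which differ by U4C, counted from the 5′ end. Gm13648 had 15.9, 18.0 and 15.0 CPM in pituitary and 2.65, 1.51, 2.66 and 2.95 CPM in ovary, a log2 fold change of −2.71 (SE 0.20, edgeR adjusted p = 6.03e-09). Gm15884 had 2.41, 2.87 and 1.66 CPM in pituitary and 0.379, 0.116, 0.148 and 0.461 CPM in ovary (log2 fold change −3.01, SE 0.50, edgeR adjusted p = 7.34e-05, or −3.82 with ovary 3 alone), and its ovary levels lay at those of olfactory and vomeronasal receptor genes. Every pituitary was above every ovary for both transcripts, which stand for the precursors and not for mature microRNA. Zeb1 itself had 180.3, 170.3, 199 and 177 CPM in ovary and 101, 98.1 and 98.6 CPM in pituitary, a log2 fold change of 0.87 (SE 0.07, edgeR adjusted p = 2.63e-08), and its relative Zeb2 had 962, 856, 891 and 943 CPM in ovary and 55.3, 51.8 and 46.8 CPM in pituitary, a log2 fold change of 4.15 (SE 0.08, edgeR adjusted p = 1.63e-15). All ovaries were above all pituitaries for both. Per length, Zeb1 and Zeb2 had 86.9 ± 5.61 and 221 ± 10.6 TPM in ovary (SD, n = 4), and 32.7 ± 1.48 and 8.58 ± 0.993 TPM in pituitary (SD, n = 3), so that Zeb2 was the higher of the pair in ovary and Zeb1 in pituitary.

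Most mesenchymal genes were higher in ovary, whereas epithelial genes were mixed, with more of them higher in pituitary. Whether Zeb1 has a part in these differences was not tested. Of 25 epithelial genes, 23 passed the filter, 13 were higher in pituitary, 4 in ovary and 6 did not pass, with a median log2 fold change of −1.14. Epcam, an epithelial adhesion molecule, had 185, 214 and 170.3 CPM in pituitary and 14.8, 10.6, 10.7 and 17.0 CPM in ovary (log2 fold change −3.84, SE 0.14, edgeR adjusted p = 1e-12). Esrp1, an epithelial splicing regulator, had 84.0, 82.8 and 76.0 CPM in pituitary and 18.0, 19.4, 16.8 and 15.9 CPM in ovary. Cdh1, or E-cadherin, went the other way, with 39.9, 35.7, 21.8 and 44.7 CPM in ovary, lowest in ovary 3, and 12.8, 13.1 and 16.0 CPM in pituitary, a log2 fold change of 1.34 (SE 0.20, edgeR adjusted p = 2.35e-05) that came to 0.68 with ovary 3 alone. So did Esrp2, with 13.1, 11.1, 10.9 and 12.1 CPM in ovary and 1.78, 3.90 and 2.32 CPM in pituitary, and the keratin gene Krt19, while Krt8 and Krt18 did not pass the test, though Krt18 was called higher in pituitary without ovary 4 (log2 fold change −0.58). Of 20 mesenchymal genes, all passed the filter and 18 were higher in ovary, with a median of 2.7. Vim, or vimentin, had 214, 208, 204 and 196 CPM in ovary and 10.7, 9.42 and 9.40 CPM in pituitary. Fn1, or fibronectin, had 451, 363, 372 and 362 CPM in ovary and 10.2, 8.84 and 11.5 CPM in pituitary, and the tissues did not overlap for either gene. Cdh2, or N-cadherin, and Thy1 were higher in pituitary, with log2 fold changes of −0.63 (SE 0.08) and −1.95 (SE 0.15). The authors named Epcam, Esrp1 and Rab25 from libraries of this series, so these members are no independent evidence of the list's direction.

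**Figure D4:**
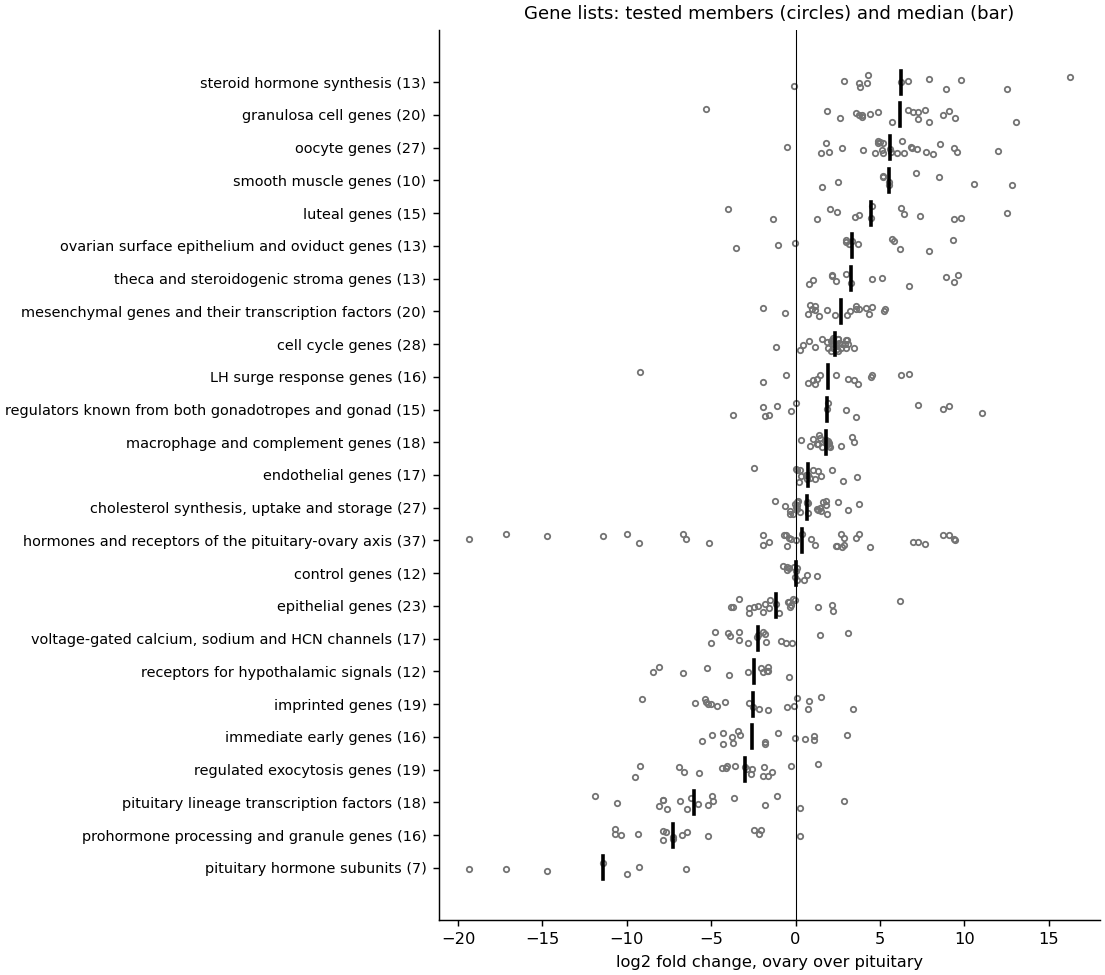
Log2 fold change of ovary over pituitary for each tested member (points) of 25 gene lists, with the median of each list as a bar and the number of members tested beside the name. Hormone, granule, exocytosis and imprinted genes lie mostly below 0, and steroid, granulosa, oocyte and smooth muscle genes above 0.

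Imprinted genes, which are expressed from 1 parental copy, were often higher in pituitary. Of 21 listed, 19 passed the filter, 13 were higher in pituitary and 4 in ovary, with a median log2 fold change of −2.52. Peg3, expressed from the paternal copy, had 3027, 2934 and 2783 CPM in pituitary and 80.5, 72.1, 81.0 and 81.4 CPM in ovary (log2 fold change −5.21, SE 0.07, edgeR adjusted p = 4.83e-17). Dlk1, a Notch-like membrane protein, had 89.2, 87.8 and 103 CPM in pituitary and at most 0.277 CPM in ovary. The noncoding RNAs Meg3, Rian and Mirg, which are expressed from the maternal copy beside Dlk1, differed by −5.02 (SE 0.10), −5.30 (SE 0.10) and −4.64 (SE 0.11). Nnat, or neuronatin, had 1394, 1468 and 1355 CPM in pituitary and 56.7, 106, 66.1 and 80.6 CPM in ovary. Gnas, which encodes the stimulatory G protein alpha subunit, had 5328, 5713 and 4952 CPM in pituitary and 778, 786, 809 and 762 CPM in ovary. H19 and Igf2, neighbours in another imprinted region, were higher in ovary, with 10.0, 16.1, 15.2 and 16.7 CPM of H19 in ovary against 1.26, 1.49 and 1.33 CPM in pituitary. Sgce and Cdkn1c did not pass the test.

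Genes of dividing cells were higher in ovary. Of 28 cell cycle genes, all passed the filter, 25 were higher in ovary and 1 higher in pituitary, with a median of 2.32. Mki67, which dividing cells express, had 138, 191, 186 and 182 CPM in ovary and 33.2, 28.0 and 37.6 CPM in pituitary. Ccnb1, the mitotic cyclin, had 25.0, 37.1, 37.5 and 34.6 CPM in ovary and 3.46, 2.53 and 3.10 CPM in pituitary. The libraries of the tissues did not overlap for either, and ovary 1 was the lowest ovary for both. Ccnd2, the cyclin that FSH raises in granulosa cells, was the exception, with 1029, 1082 and 1066 CPM in pituitary and 456.5, 528, 461 and 436 CPM in ovary.

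Markers of other cell types the dissected tissue could hold were measured beside these groups. All 10 smooth muscle genes were higher in ovary, with Acta2 at 332, 339, 397 and 417 CPM in ovary and 1.26, 0.689 and 1.11 CPM in pituitary. The endothelial genes were closer between tissues, with 12 of 17 higher in ovary, 4 not past the test and a median of 0.77. Kdr, a receptor for vascular growth factor, had 69.7, 66.7, 66.8 and 71.3 CPM in ovary and 71.6, 62.7 and 66.3 CPM in pituitary and did not pass the test, whereas Plvap, a protein of fenestrated capillaries, was higher in pituitary, with 65.7, 60.3 and 53.4 CPM against 7.86, 11.4, 10.4 and 13.7 CPM. Of 18 macrophage genes 16 were higher in ovary and none in pituitary, with Lyz2 at 49.5, 37.0, 57.7 and 64.3 CPM in ovary and 5.66, 5.17 and 4.53 CPM in pituitary. Summed levels of the fat cell genes were 322 to 576 CPM in ovary and 27.6 to 42.4 CPM in pituitary, all 8 were higher in ovary, and Adipoq, the defining adiponectin gene, had 13.2, 34.1, 18.6 and 26.7 CPM in ovary. The part of fat or smooth muscle RNA in the other differences was not tested.

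Genes of the ovarian surface and the oviduct, which lies against the ovary, were also read in the ovary libraries. Of 14 such genes, 13 passed the filter and 10 were higher in ovary, with summed levels of 336 to 729.7 CPM in ovary and 53.7 to 59.1 CPM in pituitary. Ovgp1, the oviduct glycoprotein, had 313, 269, 162 and 401 CPM in ovary, and Foxj1, the factor of ciliated cells, 41.9, 35.4, 19.95 and 53.3 CPM. Ovary 3 was lowest and ovary 4 highest for both. Upk3b and Upk1b, proteins of mesothelium and ovarian surface, varied less, with 27.7, 30.7, 29.1 and 36.6 CPM of Upk3b and 27.7, 28.3, 28.5 and 33.9 CPM of Upk1b. Cdh1 and Krt19 were also highest in ovary 4, and the part of oviduct RNA in the epithelial genes that were higher in ovary was not tested.

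Markers of the posterior lobe and hypothalamus summed to 335 to 353 CPM in pituitary and 90.6 to 102.5 CPM in ovary. Avp and Oxt, whose RNA is made in the hypothalamus, had 1.47, 0.115 and 0.332 CPM of Avp and 1.78, 0.804 and 1.55 CPM of Oxt in pituitary and were too low to be tested. Slc17a6, a glutamate transporter also known from gonadotropes and thyrotropes, had 91.5, 101 and 112 CPM in pituitary and 0.568, 0.698, 0.148 and 0.461 CPM in ovary. Of 13 genes on that list 9 passed the filter and 7 were higher in pituitary, or 5 with library totals alone. Sox2, a factor of pituitary stem cells, had 19.2, 22.3 and 17.2 CPM in pituitary and 0.0947, 0, 0.148 and 0.369 CPM in ovary. Haemoglobin RNA was higher in pituitary, with Hbb-bs at 86.5, 52.0 and 106 CPM against 11.9, 9.54, 15.7 and 17.3 CPM in ovary, and its copies share reads, so their single values are uncertain.

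Ranked by size alone among protein-coding genes with at least 20 CPM in the higher tissue, the 15 largest differences toward ovary were Hsd3b1, Wt1, Actg2, Cyp11a1, Padi6, Prss35, Cnmd, Hoxd8, Gata4, Dpt, Hoxc8, Cnn1, Acsbg1, Akr1c18 and Serpina5. Among them, Hoxd8 and Hoxc8, which specify position along the trunk, had 29.4, 28.5, 28.2 and 30.9 CPM of Hoxd8 and 22.4, 22.8, 22.8 and 22.8 CPM of Hoxc8 in ovary and no read in pituitary, at least 266-fold and at least 207-fold higher. Prss35, a protease-like protein of follicles, had 475, 393, 424 and 457 CPM in ovary and 3 reads over the pituitaries, a ratio of 3987-fold (95% counting interval 1364 to 19333). Acsbg1, which activates fatty acids and is known from steroidogenic cells, had 342, 371, 417 and 399 CPM in ovary and 0.105, 0.230 and 0.442 CPM in pituitary. The 15 largest toward pituitary were Prl, Gh, Cga, Neurod4, Pomc, Chgb, Resp18, Pou1f1, Scg2, Crhbp, Celsr3, Tshb, Syt4, Pcsk1n and AI593442. Crhbp, which binds corticotropin-releasing hormone, had 398, 502 and 341 CPM in pituitary and 0.379, 0.233, 0.222 and 0.461 CPM in ovary, and Celsr3, a cadherin, 41.0, 28.8 and 37.9 CPM with 1 read over the ovaries.

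Ranked by level per length, the highest protein-coding genes with a known product in ovary, mitochondrial genes left out, were Actb at 7399.7 ± 116 TPM, Hsd3b1 at 5663 ± 519 TPM and B2m at 4599 ± 455 TPM (SD, n = 4), and in pituitary Prl, Gh, Eef1a1 at 2672 ± 38.6 TPM and Cga. The aldo-keto reductase Akr1cl, at 1739.8 ± 208 TPM in ovary against 2.08 ± 0.778 TPM in pituitary, stood above Inha at 1369 ± 115 TPM. The small noncoding RNA Rn7sk had 58151 ± 4099 TPM in ovary, above Actb, and 33604 ± 999 TPM in pituitary, below Prl and Gh. By TMM-scaled counts Rn7sk was higher in ovary by a log2 fold change of only 0.25 (SE 0.06). A total of 3296 genes had a 95% confidence interval of the log2 fold change within 0.5 of 0. Among the most abundant of these were Zbtb20, Srrm2, Huwe1 and Wnk1, and Srrm2, a splicing protein, had 2094, 1927, 2090.2 and 1908 CPM in ovary and 1992, 1932 and 1992 CPM in pituitary. Zbtb20, a transcription factor, was nonetheless called slightly higher in pituitary, by a log2 fold change of −0.19 (SE 0.06, edgeR adjusted p = 0.00775), a call lost with library totals alone (0.049), without ovary 1 (−0.15) or without ovary 2 (−0.14). Of 12 common control genes Actb was higher in ovary by 1.28 (SE 0.06), Hprt was higher in pituitary (−0.72, SE 0.09), and Ywhaz and Polr2a did not pass the test under TMM scaling.

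Libraries of 1 tissue also differed among themselves. In pituitary, immediate early genes, which neurons and endocrine cells switch on within minutes of a stimulus, were highest in pituitary 2. Fos had 17.9, 562 and 56.2 CPM in pituitary 1, 2 and u, and Dusp1 35.02, 433 and 40.8 CPM. Of 18 such genes, 16 passed the filter, 11 were higher in pituitary than in ovary and 3 in ovary, with a median log2 fold change of −2.55. Without pituitary 2 the counts were 10 and 4 and the median −1.35. Fos went from −4.31 to −1.82, Dusp1 from −3.79 to −1.66 and Egr1 from −1.79 to −0.61 when pituitary 2 was left out, all still higher in pituitary. Nr4a2, an orphan nuclear receptor, was high in every pituitary, with 482, 743 and 382 CPM against 13.4, 11.5, 10.9 and 10.6 CPM in ovary.

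In ovary, the genes that varied most among those with at least 50 CPM were of a few kinds. Dynein and cilium genes, Dnah3, Dnah5, Dnah6 and Hydin, were lowest in ovary 3 and highest in ovary 4, as Foxj1 and Ovgp1 were, and Dnah6 had 101, 96.6, 45.4 and 143 CPM. Gm10800, Gm10801 and Gm21738, short predicted genes in repeats whose reads cannot be placed with certainty, were lowest in ovary 3, where Gm10800 had 1209 CPM against 3564 to 3651 CPM in the others, the same library that was lowest on receptor genes. Scd1, a fatty acid desaturase, had 150.2, 467, 173 and 350.2 CPM in ovary 1 to 4, Stc1, or stanniocalcin, 73.6, 61.9, 134 and 198 CPM, and A2ml1, an alpha-2-macroglobulin-like protein, 322, 229.9, 106 and 266 CPM. All 3 were still above every pituitary library, whose highest values were 32.5, 5.03 and 3.04 CPM.

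**Figure D5:**
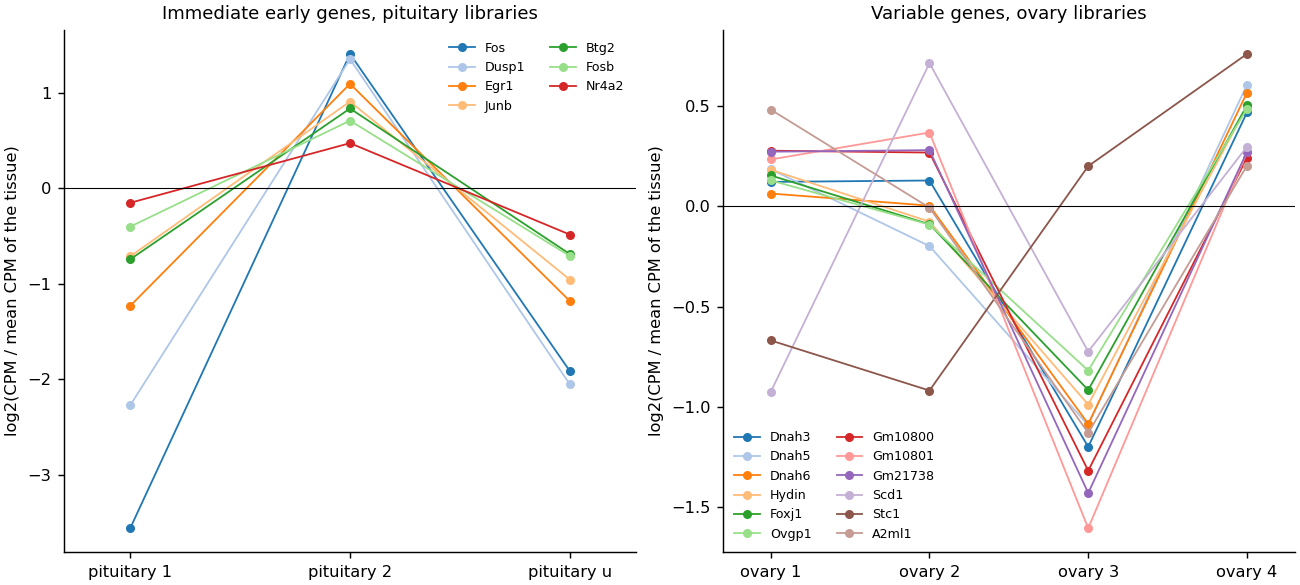
Log2 ratio of each library to the mean of its own tissue for immediate early genes in the 3 pituitary libraries (left) and for cilium, repeat and other variable genes in the 4 ovary libraries (right), 1 line per gene. Pituitary 2 stands highest for Fos and Dusp1, and ovary 3 lowest for the cilium and repeat genes.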

How the data were processed

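RNA of 4 young WT ovaries and 3 young WT pituitaries was sequenced by the authors as paired reads from ribosomal-RNA-depleted, stranded libraries, aligned with STAR 2.7.1a to mm10 (GRCm38) and assigned to genes with featureCounts on the reverse strand. The deposited tables hold raw counts per gene and library, beside the authors' own fold changes and p-values, which were not used. Counts were read from 3 of 18 tables, and 265 other per-sample columns of the tables were not used. Ovary and pituitary columns were joined by gene ID (55401 IDs, each with a symbol). One pituitary column carries the number 3, whereas the sample titles carry 1, 2 and 4, so that library has its group but no number.

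Tests used edgeR 4.0.16 (limma 3.58.1, R 4.3.3): TMM scaling, genes kept by filterByExpr, the quasi-likelihood F test, and glmTreat against 2-fold. Benjamini-Hochberg adjustment ran over all 20111 genes. The SE of a log2 fold change is its size divided by the root of the test's F value. DESeq2 1.42.0, other scalings and filters, and leaving out each library were alternatives, and the scripts were tested on simulated data. TPM were computed from the counts and exon lengths of GENCODE M21 on GRCm38, a release other than the one counted. Folds of genes with no read in a tissue were set against a floor of 3 reads over that tissue, and folds of genes with 1 to 3 reads are ratios with exact 95% counting intervals, which cover counting error only. Depth was 7874366 to 12896366 counts a library, at which 3 reads over a tissue are 0.0689 to 0.110 CPM. The libraries were taken by label, but these members, the 36 gene lists and the tests were chosen with earlier results of these data known. Named genes are members of those lists, the 15 largest differences each way, the 10 highest levels per length, the 10 most abundant genes with an interval within 0.5, and the 10 most variable genes within each tissue. Results on some of these genes are not reported here.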

Additional observations from a re-analysis of the deposited data

Results flagged for a closer look

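14 of 197 ovary values tested held 1 library far from the other 3. The gap to the nearest other took more of the group's range than Dixon's 95% limit for 4 samples. Chance gives about 1 in 20 for values picked without regard to spread. Some of these genes were named for varying most within these ovaries, and all values come from the same 4 libraries. The count can therefore not be set against that rate. Ovary 1 stood above the others for Fn1 at 451 CPM (others 362 to 372). Ovary 1 stood below the others for Hoxc8 at 22.4 CPM (others 22.8 to 22.8) and Mki67 at 138 CPM (others 182 to 191). Ovary 2 stood above the others for Cga at 0.116 CPM (others 0) and Fshb at 0.582 CPM (others 0 to 0.0947). Ovary 2 stood below the others for Lhcgr at 1526 CPM (others 2191 to 2298) and Peg3 at 72.1 CPM (others 80.5 to 81.4). Ovary 3 stood above the others for Celsr3 at 0.0739 CPM (others 0). Ovary 3 stood below the others for Gm10800 at 1209 CPM (others 3564 to 3651), Gm10801 at 154 CPM (others 552 to 606), Gm21738 at 63.4 CPM (others 206 to 207) and Sox3 at 1.77 CPM (others 3.49 to 3.69). Ovary 4 stood above the others for Adcyap1r1 at 15.8 CPM (others 10.6 to 11.3) and Upk1b at 33.9 CPM (others 27.7 to 28.5). Cga and Celsr3 had 1 read over the 4 ovaries, so the library that held it had to stand apart, and among genes with over 3 ovary reads 12 of 195 values were far from the others. Groups of 3 pituitaries are too small for this test.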

How the results depend on the processing

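The count of genes that differed was 13215 with DESeq2, 13728 with its size factors in edgeR, 14003 with library totals alone, 13617 with Prl, Gh, Pomc and mitochondrial counts left out of the scaling, 14796 without a filter and 12831 to 13406 with a library left out, against 13745. A minimum of 1 CPM in 3 libraries kept the same number of genes as filterByExpr and gave the same counts. The count at least 2-fold was 5048 to 6818 over these settings, against 6351, and ovary 3 alone, chosen after seeing the data and with its spread taken from pituitary, gave 5390. Leaving out a library kept the direction of the 2 shares of counts tested over libraries. Ovary and pituitary of the same number deviated from their tissues' means with r = 0.0080 and 0.015 for numbers 1 and 2. Organs of 1 animal need not deviate together, so these values cannot show whether the numbers pair the libraries. With the number as a replicate block over those 4 libraries, 12331 genes differed (5887 at least 2-fold), against 12161 (5932) without the block. Without a filter and with the block edgeR estimated 1 common spread for all genes, so those p-values leave out differences in spread between genes. Of the 11 times a named gene changed sign, 10 were of genes not called in the main comparison, the exception being Zbtb20, and no value of the new sign was called. With library totals alone, the log2 fold change was 0.11 for Krt8, 0.14 for Por, 0.17 for Sgce and 0.049 for Zbtb20. Krt8 was at 0.024 with the block and 0.023 over the same libraries without it. With a library left out, the value ran from −0.032 to 0.15 for Cdkn1c and −0.0098 to 0.099 for Ywhaz, negative without pituitary 1, from −0.037 to 0.088 for Kdr and −0.020 to 0.082 for Srrm2, negative without pituitary 2, and from −1.10 to 0.91 for Ptgs2, positive without pituitary 2. The cause was not tested. Of 194 named genes tested, 174 kept direction and side of the threshold under all alternatives run. Leaving out 1 library moved the fold change of 19 named genes by over 1.5 times, and ovary 3 alone moved that of 36. Few reads in the lower tissue limit the precision of large fold changes.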

Other observations

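Several gene families beyond the axis differed between the tissues. Of 44 collagen genes, 43 passed the filter, 29 were higher in ovary and 7 in pituitary, with a median log2 fold change of 1.76. Col6a4, a collagen VI chain, was highest of them toward ovary at 7.40 (SE 0.13), and Col25a1, a membrane collagen known from neurons, lowest at −2.89 (SE 0.13). All 19 Adamts protease genes, which cut matrix proteins, passed the filter, and 17 were higher in ovary and none in pituitary. Adamts12 had the largest difference, at 4.78 (SE 0.12), and Adamts1 was higher in ovary by 2.38 (SE 0.17).

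Of 45 Wnt ligands, receptors and antagonists, 32 passed the filter, 24 were higher in ovary and 5 in pituitary, among the latter Rspo4, a Wnt enhancer, at −4.29 (SE 0.26). Of 92 potassium channel genes, 76 passed, 41 were higher in pituitary and 19 in ovary, with a median of −0.63. Of the channels, Kcnh8 had the largest difference toward pituitary, with 141, 139 and 124 CPM in pituitary and 0.474, 1.28, 1.33 and 1.57 CPM in ovary. Ribosomal protein genes moved with the scaling: of 77 tested, 12 were higher in ovary and 21 in pituitary under TMM (median −0.04), against 35 and 6 with library totals alone (median 0.20), so no direction is given for them. Of 13 mitochondrial protein genes, 11 passed the filter and 9 were higher in ovary, none of them at least 2-fold. The 6 abundant ones lay between 0.35 (mt-Cytb, SE 0.05) and 0.83 (mt-Nd2, SE 0.06), while others, such as mt-Co3 and mt-Atp6, had almost no assigned reads, with mt-Co3 at 2.84, 3.37, 3.25 and 3.60 CPM in ovary.

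The remaining lists gave mixed counts. Of 12 control genes 3 were higher in ovary and 4 in pituitary, or 6 and 2 with library totals alone. Of 16 regulators of gonadotropes and gonad 15 passed the filter, 8 were higher in ovary and 6 in pituitary. Of 10 stem cell and folliculostellate genes 7 passed, 4 were higher in pituitary and 2 in ovary. Of 7 red blood cell genes 5 passed and 4 were higher in pituitary, and of 11 neuron and Schwann cell genes 10 passed, 5 being higher in pituitary and 2 in ovary.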
